A study of Saccharomyces cerevisiae with 10 samples.

Results

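Described here are 57 genes of budding yeast: GCN4, and the genes of amino acid synthesis outside the sulfur pathway, many of which its product activates. They were taken from a list of pathway members and not by a rule on their measured values. Earlier results of these data were known when the list was chosen. Of the 5824 features in the expression table, 56 were members, and LEU2 had no row. LEU2 and HIS3 are disrupted in the strain background by the leu2Δ0 and his3Δ1 alleles, so 55 members were counted and HIS3 is given on its own. The study overexpressed essential genes to ask which of them change replicative lifespan, and profiled the transcripts of 4 strains and a control by RNA-seq. All strains were BY4741, a haploid MATa laboratory strain that is also met15Δ0 and ura3Δ0 and that needs histidine, leucine, methionine and uracil. TIF35-OE, UTP6-OE, PRP22-OE and LSM5-OE each carried a low-copy centromeric plasmid with the named gene under its own promoter and terminator and a URA3 marker, and WT was the control strain. An empty vector is described for the WT of the lifespan assays, and the sources used here do not state it for the WT of the RNA-seq. Each strain was grown as 2 independent cultures in liquid medium without uracil, with 2% glucose, and collected at an OD600 of 0.4. All 10 libraries therefore come from the same medium, and no culture was starved of an amino acid on purpose.

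Yeast makes all the amino acids of its proteins, and most of the genes for this are switched on together when any of several amino acids runs short. In this response, called general amino acid control, the kinase Gcn2 senses uncharged tRNA and slows translation initiation, while short upstream reading frames in the GCN4 mRNA let more Gcn4 protein be made. Gcn4 then binds the motif TGACTC and its close variants in front of genes of arginine, histidine, lysine, branched-chain and other pathways. Single pathways also have factors of their own, such as Leu3 for leucine, isoleucine and valine genes and Lys14 for lysine genes. The abundance of the GCN4 mRNA is thus not a measure of Gcn4 protein, which was not measured here. The overexpressed genes act elsewhere: TIF35 encodes a subunit of translation initiation factor eIF3, UTP6 a protein of the processome that makes the small ribosomal subunit, PRP22 a splicing helicase and LSM5 a protein of the Lsm complexes of mRNA decay and U6 RNA.

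The sequence letters in front of the members are shown first. The choice of members did not search for motifs. Many of the members were known to be activated by Gcn4, so the share with its motif is a description and not an independent result. In the 250 bases before to 50 after each start codon of the R64 genome, searched on both strands, TGACTC was present in 29 of the 55 members (52.7%), against 479 of all 6001 nuclear protein-coding genes (7.98%). It was found in 4 of 5 histidine genes, 3 of 6 arginine genes, 6 of 10 branched-chain genes, 3 of 7 lysine genes, 4 of 9 aromatic genes and 3 of 4 serine genes. The 30-base windows below, read 5′ to 3′ on the strand of the gene, are examples. They come from members that hold the motif and were higher or lower in at least 1 overexpression strain. Capitals mark TGACTC or its reverse complement GAGTCA, and positions are counted from the start codon. The first 7 lie in front of genes that were higher in at least 1 overexpression strain, and the last 3 in front of genes that were lower in UTP6-OE.
HIS4, chrIII:68515-68544, gene on the minus strand, motif from base -199: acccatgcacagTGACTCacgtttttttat
HIS5, chrIX:142714-142743, gene on the plus strand, motif from base -202: tcttggatctgtTGACTCacttcaattgat
HIS1, chrV:265951-265980, gene on the minus strand, motif from base -183: aagcttccaagtGAGTCAcctctaccgttg
ARG4, chrVIII:141564-141593, gene on the minus strand, motif from base -179: ttagtagatgaaTGACTCactttttggata
ILV6, chrIII:105681-105710, gene on the minus strand, motif from base -150: tcaccgttatcgTGACTCactttctttcgc
LYS1, chrIX:420957-420986, gene on the minus strand, motif from base -249: tGAGTCAaaaaagactcttatacatttata
SER1, chrXV:679161-679190, gene on the plus strand, motif from base -184: gcccaaaagtagTGACTCtttctaagcatc
ILV5, chrXII:839376-839405, gene on the minus strand, motif from base -140: gatgacctaactTGACTCaatggcttttac
ILV3, chrX:466326-466355, gene on the minus strand, motif from base -135: ttcctctccagaTGACTCagtaatatagta
SER33, chrIX:222627-222656, gene on the minus strand, motif from base -154: cacgctggaaacGAGTCAccgttatgaaaa

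The Lys14 motif TCCNNNGGA was present in 3 of the 7 lysine genes, and in 5 of the 55 members (9.09%), against 204 of the 6001 genes (3.4%). The longer Leu3 motif was present in LEU1 and BAT1, 2 of the 10 branched-chain genes counted, against 8 of the 6001 genes (0.133%). LYS9 had a pair of Lys14 motifs, and LYS12 and LYS1 had 1 each beside their TGACTC. The remaining members with this motif were GLT1, where it lies past the start codon, and LEU9. GLT1 was called lower in TIF35-OE, and LEU9 was not called. LYS20, LYS21 and LYS2 were higher in TIF35-OE and had no match. The windows below are those of LYS9, LYS12 and LYS1, which were also higher in TIF35-OE, and capitals mark the motif.
LYS9, chrXIV:715594-715623, gene on the minus strand, motif from base -225: gaatcgaaatTCCGTTGGAaaaattcgctt
LYS9, chrXIV:715532-715561, gene on the minus strand, motif from base -163: attgagaattTCCAATGGAattatcagcaa
LYS12, chrIX:187795-187824, gene on the minus strand, motif from base -182: ttcactttttTCCCGTGGAaaaatattctt
LYS1, chrIX:420913-420942, gene on the minus strand, motif from base -196: atttttttttTCCAGCGGAatttggaattc
No TGACTC was present in these windows of ARG1, ARG3, LYS20, LYS9, HIS2, ARO3, BAT2, SER3 or GCN4. The search was for exact letters in 1 window per gene, so the absence of a match says nothing about binding.

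The deposited values were FPKM, fragment numbers scaled to the length of the feature and the depth of the library, with no counts beside them. From the spacing of the low values, the libraries were estimated to hold 13453530 to 17366126 fragments, and the least abundant member, GDH3, rested on at least 351 fragments in each library. The same estimate gave a fragment length of 309 to 314 bases in 7 libraries and of 282 to 284 bases in the other 3, which were culture 2 of PRP22-OE and culture 1 of UTP6-OE and of TIF35-OE. In those 3 libraries, none of them LSM5-OE or WT, the ribosomal protein gene RPS30A was at 17284 to 20057 FPKM, while it was listed at 0 in the other 7. The overexpressed gene was above WT in both cultures of its own strain, by 1.37 for TIF35, 1.32 for UTP6, 1.08 for PRP22 and 1.95 for LSM5 on the log2 scale. URA3, absent from the background and present on the plasmid, was at 625 to 894 FPKM in the overexpression cultures and at 919.6 and 937 FPKM in the WT cultures, and was called lower than WT in TIF35-OE and PRP22-OE. The summed level of the 3 MATa genes with rows was 607 to 860.5 FPKM in the overexpression cultures and 728 and 752 FPKM in the WT cultures, while that of 4 genes of the other mating type was 43.8 to 81.8 FPKM in the overexpression cultures and 65.6 and 74.0 FPKM in the WT cultures, with none of these genes at 0.

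More of the amino acid synthesis genes were higher than lower in every overexpression strain. Log2(FPKM + 0.5) was compared with limma over 5768 features that averaged 1 FPKM or more, and a gene was called where the Benjamini-Hochberg adjusted p reached 0.05 or less. Of the 55 members, 31 were called in TIF35-OE, where 30.3% of all tested features were called in either direction, 27 in UTP6-OE (29.1%), 18 in PRP22-OE (19.3%), while LSM5-OE had 11 (7.65%). Among the 31, 25 were higher than WT, among them ARG1, ARG3, HIS4, HIS5 and LYS20, where 9.62% of all tested features were called higher. The other 6 were lower, where 20.7% of all features were called lower. UTP6-OE had 17 members higher and 10 lower, against 9.95% and 19.1% of all features. PRP22-OE had 14 members higher and 4 lower, against 7.09% and 12.2% of all features, and LSM5-OE had 9 higher and 2 lower, against 4.7% and 2.95%. Over the 55 members the log2 fold change had a median of 0.16 in TIF35-OE, 0.06 in PRP22-OE, 0.05 in UTP6-OE and 0.04 in LSM5-OE, while that of all tested features was -0.10, -0.05, -0.07 and -0.01 in the same order. The 4 comparisons share the same 2 WT cultures, so their counts are not independent of each other. In RNA from whole cultures, a change in some of the cells and a change in all of them cannot be told apart.

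**Figure D1:**
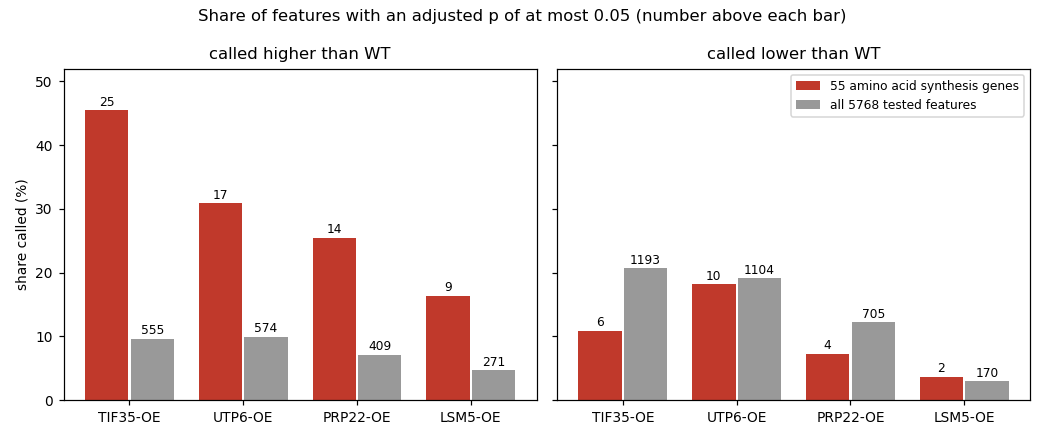
Share of genes called (%) in each overexpression strain against WT at an adjusted p of at most 0.05, higher on the left and lower on the right. Red bars are the 55 amino acid synthesis genes, grey bars all 5768 tested features, and the number of genes stands above each bar: 25 members were higher in TIF35-OE and 9 in LSM5-OE.

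Both cultures lay above both WT cultures for 37 members in TIF35-OE, where this held for 23.1% of all features, for 27 in UTP6-OE (26.1%), for 29 in PRP22-OE (24.4%) and for 26 in LSM5-OE (24.1%). Both lay below WT for 14, 18, 21 and 15 members in the same order, against 49.3%, 45.0%, 40.3% and 25.5% of all features. When the libraries were rescaled by the median of ratios, which moved the median of all features by 0.01 to 0.09, the members called higher and lower were 34 and 5 in TIF35-OE, 25 and 7 in UTP6-OE, 20 and 4 in PRP22-OE, and 10 and 2 in LSM5-OE. The share of higher calls among the members then moved by over 10 percentage points in UTP6-OE, to 78.1% from 63.0%, and among all features to 57.1% from 31.8% in TIF35-OE, to 54.4% from 34.2% in UTP6-OE and to 54.1% from 36.7% in PRP22-OE. The number of calls also depended on the libraries in the fit. Leaving out the 3 libraries of shorter fragments cut the residual degrees of freedom to 2 from 5. LSM5-OE and WT lost no library, and the LSM5-OE log2 fold changes did not move, as with ARG1 at 0.392 and BAT2 at -0.376. Calls of LSM5-OE were thus lost there with unchanged fold changes. The share of all features called in that fit is not given here, so whether members lost more calls than other genes was not tested. Without the 3 libraries of shorter fragments, the members called were 10 higher and 3 lower in TIF35-OE, 9 and 5 in UTP6-OE, 3 and 2 in PRP22-OE, and 1 and 0 in LSM5-OE, and every member called with all libraries kept its sign. In those fits the calls of PRP22-OE were HIS4, ARG1, LYS20, SER3 and BAT2, and LSM5-OE had HIS4 alone. Among the calls lost there were those of HIS1 and ILV6 in both TIF35-OE and UTP6-OE. The calls of HIS2, LEU4, LYS1 and TRP4 in TIF35-OE and of LYS21 in UTP6-OE were lost there too. The losses given for single genes below are those with a single culture left out, or after rescaling, and do not repeat these. With each culture of a comparison left out in turn, 19 of 31 calls were kept throughout in TIF35-OE, 17 of 27 in UTP6-OE, 11 of 18 in PRP22-OE, while LSM5-OE kept 1 of 11. The 10 LSM5-OE calls other than that of HIS4 were lost without the first WT culture (adjusted p of 0.0734 to 0.256) and without the second (0.0535 to 0.26).

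**Figure D2:**
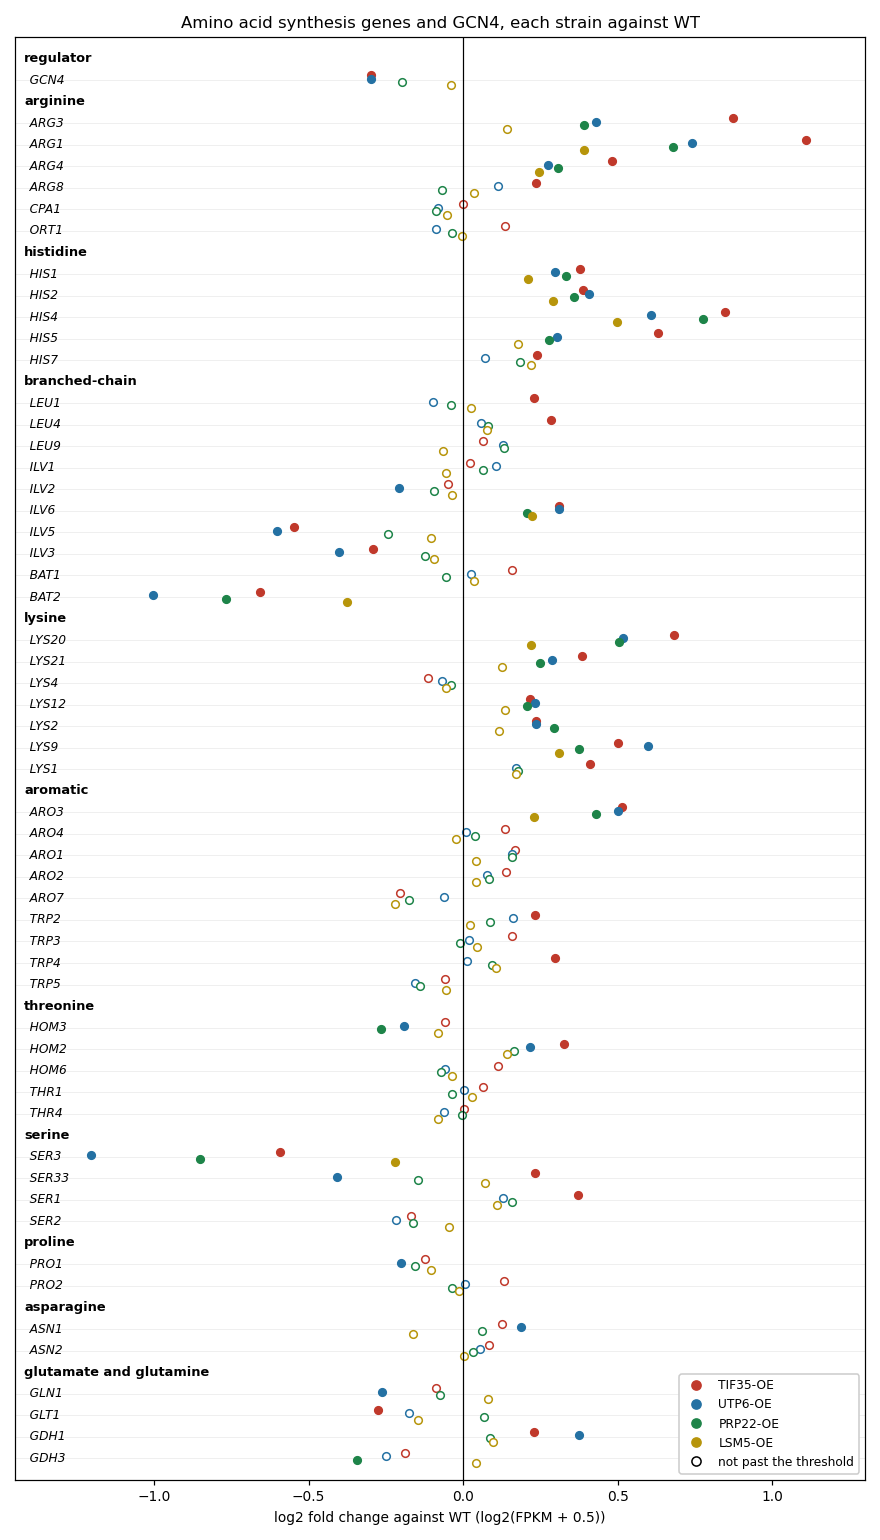
Log2 fold change against WT of the 55 members in the 4 overexpression strains, grouped by pathway, on the log2(FPKM + 0.5) scale. Filled points were called at an adjusted p of at most 0.05 and open points were not. Arginine, histidine and lysine genes hold most of the filled points to the right, while SER3 and BAT2 lie farthest to the left, at -1.21 and -1.004 in UTP6-OE.

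GCN4 itself (chrV:138918-139763, R64) was not higher in any overexpression strain. Its mRNA was at 1387 and 1559 FPKM in TIF35-OE, 1482 and 1459.7 FPKM in UTP6-OE, 1651 and 1508 FPKM in PRP22-OE, 1806 and 1716 FPKM in LSM5-OE, against 1812 and 1806 FPKM in WT. Both cultures of PRP22-OE, UTP6-OE and TIF35-OE lay below both WT cultures, and those of LSM5-OE overlapped with WT. GCN4 differed from WT on the log2 scale by -0.30 ± 0.07 in TIF35-OE (adjusted p = 0.0206), -0.30 ± 0.07 in UTP6-OE (adjusted p = 0.0195), -0.20 ± 0.07 in PRP22-OE (adjusted p = 0.105) and -0.04 ± 0.07 in LSM5-OE (adjusted p = 0.809), where ± is the standard error of the fit, and all differences given below are on this log2 scale unless they are called folds or FPKM. GCN4 was thus called lower in TIF35-OE and UTP6-OE, by about as much in each, while most called members were higher in these strains. The TIF35-OE call was lost without the first TIF35-OE culture (adjusted p = 0.121) or either WT culture (0.0961 and 0.0931), and also after rescaling (log2 fold change -0.21, adjusted p = 0.0581). The UTP6-OE call was lost without either UTP6-OE culture (adjusted p = 0.0721 and 0.0902) or either WT culture (0.0944 and 0.0886). At a mean of 1619 FPKM over all libraries, GCN4 was the second most abundant member per length, after GLN1, the glutamine synthetase gene, with 1828 FPKM, and ahead of ILV5 with 1198 FPKM. GDH3 and GLT1 were the least abundant, with 24.96 and 38.9 FPKM. Over the 10 libraries, the members whose log2 levels followed GCN4 most closely were ILV5 (Pearson's r = 0.955), ILV3 (0.88), BAT2 (0.82), GLN1 (0.82) and SER3 (0.82), and those that ran most against it were ARO3 (-0.903), LYS20 (-0.852), ARG3 (-0.82), ARG1 (-0.809) and LYS9 (-0.809), given as a description only, since cultures of a strain share its difference from WT.

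Of the 6 arginine genes, 4 were higher in TIF35-OE, 3 in UTP6-OE and PRP22-OE and 2 in LSM5-OE, and none was lower in any strain, where limma also found none at an unadjusted p under 0.05. Of all features, 4.7% (LSM5-OE) to 9.95% (UTP6-OE) were called higher and 2.95% (LSM5-OE) to 20.7% (TIF35-OE) lower. Beside such shares, the absence of lower calls among 6 genes says little. ARG1 encodes argininosuccinate synthetase (chrXV:219211-220473). It was at 707 and 743 FPKM in TIF35-OE, 554 and 566 FPKM in UTP6-OE, 566 and 511 FPKM in PRP22-OE, 452 and 428 FPKM in LSM5-OE, against 337 and 333 FPKM in WT. All 8 overexpression cultures were above both WT cultures, and those of TIF35-OE were the highest. ARG1 was above WT by 1.11 ± 0.06 in TIF35-OE (adjusted p = 6.3e-05), 0.74 ± 0.06 in UTP6-OE (adjusted p = 0.000127), 0.68 ± 0.06 in PRP22-OE (adjusted p = 0.000283) and 0.39 ± 0.06 in LSM5-OE (adjusted p = 0.0117), and in TIF35-OE this was the largest rise of any member, 2.16-fold between the means. The LSM5-OE call was lost without the first LSM5-OE culture (adjusted p = 0.0541) or either WT culture (0.0837 and 0.085).

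ARG3, for ornithine carbamoyltransferase, the step before Arg1 (chrX:268799-269815), was at 116 and 112 FPKM in TIF35-OE, 80.5 and 86.4 FPKM in UTP6-OE, 78.9 and 83.4 FPKM in PRP22-OE, 71.3 and 65.3 FPKM in LSM5-OE, against 62.5 and 61.01 FPKM in WT. The TIF35-OE cultures stood apart from all others, those of UTP6-OE and PRP22-OE overlapped with each other, and all lay above WT. ARG3 differed from WT by 0.87 ± 0.06 in TIF35-OE (adjusted p = 0.000122), 0.43 ± 0.06 in UTP6-OE (adjusted p = 0.00214), 0.39 ± 0.06 in PRP22-OE (adjusted p = 0.00489) and 0.14 ± 0.06 in LSM5-OE (adjusted p = 0.239). TIF35-OE exceeded UTP6-OE by 0.44 and PRP22-OE by 0.48 on the log2 scale, with adjusted p of 0.00691 and 0.00396. The first of these was lost without the first TIF35-OE culture (adjusted p = 0.0559). ARG4, for argininosuccinate lyase, which follows Arg1, was above WT by 0.48 in TIF35-OE, 0.31 in PRP22-OE, 0.27 in UTP6-OE and 0.25 in LSM5-OE, and was called in all 4 strains. The ARG4 call was lost in UTP6-OE without the second UTP6-OE culture (adjusted p = 0.0504) or the first WT culture (0.0649), in PRP22-OE without the first WT culture (adjusted p = 0.0607) and in LSM5-OE without either LSM5-OE culture (adjusted p = 0.113 and 0.0602) or either WT culture (0.217 and 0.107). ARG8, for acetylornithine aminotransferase, was called in TIF35-OE alone, by 0.24, and that call was lost without either TIF35-OE culture (adjusted p = 0.174 and 0.103) or either WT culture (0.0814 and 0.208). CPA1, for the small subunit of the arginine-regulated carbamoyl phosphate synthetase, and ORT1, for the mitochondrial ornithine transporter, lay between -0.09 and 0.14 in the 4 strains and were not called.

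The histidine genes were the pathway with the largest share of calls in TIF35-OE. All 5 counted genes were higher in that strain, 4 each in PRP22-OE and UTP6-OE and 3 in LSM5-OE, with none lower, at an unadjusted p under 0.05 neither. At most 9.95% of all features were called higher in a strain and at most 20.7% lower. The absence of lower calls among 5 genes therefore says little. HIS4 encodes the enzyme that catalyses several steps of histidine synthesis (chrIII:65934-68333), and its promoter holds the TGACTC window shown above and another farther from the start codon. It was at 450.1 and 470.4 FPKM in TIF35-OE, 378 and 403 FPKM in UTP6-OE, 458 and 418 FPKM in PRP22-OE, 358 and 364 FPKM in LSM5-OE, against 258 and 254 FPKM in WT. No overexpression culture overlapped with WT, and LSM5-OE was the lowest of the 4 strains. HIS4 was above WT by 0.85 ± 0.06 in TIF35-OE (adjusted p = 0.000122), 0.61 ± 0.06 in UTP6-OE (adjusted p = 0.000295), 0.77 ± 0.06 in PRP22-OE (adjusted p = 0.000125) and 0.50 ± 0.06 in LSM5-OE (adjusted p = 0.0039). In LSM5-OE this was the largest rise of any member, and HIS4 was the only member called in all 4 strains under every alternative tried.

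HIS5, for histidinol-phosphate aminotransferase, was above WT by 0.63 in TIF35-OE (adjusted p = 0.00019), 0.30 in UTP6-OE (adjusted p = 0.00396), 0.28 in PRP22-OE (adjusted p = 0.00798) and 0.18 in LSM5-OE (adjusted p = 0.0826), and UTP6-OE minus TIF35-OE was -0.33 (adjusted p = 0.00889), past the threshold except without the first UTP6-OE culture (adjusted p = 0.06) or either TIF35-OE culture (0.0706 and 0.0528). The PRP22-OE call of HIS5 was lost without the second WT culture (adjusted p = 0.0677). HIS2, for histidinolphosphatase, was at 129.8 and 135 FPKM in TIF35-OE, 134 and 136 FPKM in UTP6-OE, 130.1 and 129.8 FPKM in PRP22-OE, 123 and 125 FPKM in LSM5-OE, against 98.6 and 104 FPKM in WT. All overexpression cultures lay above WT, by 0.39 ± 0.05 in TIF35-OE (adjusted p = 0.00131), 0.41 ± 0.05 in UTP6-OE (adjusted p = 0.000685), 0.36 ± 0.05 in PRP22-OE (adjusted p = 0.002) and 0.29 ± 0.05 in LSM5-OE (adjusted p = 0.0125), and HIS2 did not pass the threshold in the F test among the 4 overexpression strains (adjusted p = 0.256). The LSM5-OE call of HIS2 was lost without either WT culture (adjusted p = 0.114 and 0.0535). HIS1, for the enzyme of the first step, was higher by 0.38 in TIF35-OE, 0.33 in PRP22-OE, 0.30 in UTP6-OE and 0.21 in LSM5-OE, called in all 4, though in LSM5-OE not without either LSM5-OE culture (adjusted p = 0.143 and 0.0567) or either WT culture (0.256 and 0.174). HIS7, for imidazole glycerol phosphate synthase, was called in TIF35-OE alone, by 0.24, and not without the second TIF35-OE culture (adjusted p = 0.0882) or either WT culture (0.085 and 0.0757).

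HIS3, for imidazoleglycerol-phosphate dehydratase, still had a row with reads. The his3Δ1 allele is known to lack an internal part of the gene, and where in HIS3 the fragments fell is not shown by these values. Its row was at 247 and 223 FPKM in TIF35-OE, 204 and 197 FPKM in UTP6-OE, 181 and 186 FPKM in PRP22-OE, 174 and 229 FPKM in LSM5-OE, against 163 and 148 FPKM in WT. All 8 overexpression cultures lay above WT, and only TIF35-OE passed the threshold, with a log2 difference of 0.59 ± 0.12 in TIF35-OE (adjusted p = 0.0108), 0.37 ± 0.12 in UTP6-OE (adjusted p = 0.0552), 0.24 ± 0.12 in PRP22-OE (adjusted p = 0.217) and 0.36 ± 0.12 in LSM5-OE (adjusted p = 0.128). The TIF35-OE value was past the threshold except without the first TIF35-OE culture (adjusted p = 0.0681) or the second WT culture (0.0678). HIS3 makes no functional enzyme in this background and is in no count or median here.

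Most lysine genes were higher in 3 strains. Of 7, 6 were higher in TIF35-OE and 5 each in UTP6-OE and PRP22-OE, with 2 in LSM5-OE, and none was lower, where at an unadjusted p under 0.05 only 1 was, in TIF35-OE. Among all features, no strain had more than 9.95% called higher or 20.7% called lower. With 7 genes, having none called lower says little. LYS20 encodes a homocitrate synthase, the enzyme of the first step (chrIV:133437-134723). It was at 487 and 500.2 FPKM in TIF35-OE, 427 and 453 FPKM in UTP6-OE, 445 and 428 FPKM in PRP22-OE, 361 and 355 FPKM in LSM5-OE, against 316 and 299 FPKM in WT. The ranges of UTP6-OE and PRP22-OE overlapped, TIF35-OE was above them, and LSM5-OE lay between them and WT. LYS20 was higher than WT by 0.68 ± 0.05 in TIF35-OE (adjusted p = 0.000168), 0.52 ± 0.05 in UTP6-OE (adjusted p = 0.00035), 0.50 ± 0.05 in PRP22-OE (adjusted p = 0.000573) and 0.22 ± 0.05 in LSM5-OE (adjusted p = 0.0471). The LSM5-OE call of LYS20 was lost without either LSM5-OE culture (adjusted p = 0.135 and 0.091) or either WT culture (0.144 and 0.26).

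LYS9, for the glutamate-forming saccharopine dehydrogenase and with both Lys14 motifs shown above, was at 258 and 275 FPKM in TIF35-OE, 286 and 283 FPKM in UTP6-OE, 245 and 243 FPKM in PRP22-OE, 227 and 239 FPKM in LSM5-OE, against 191 and 185 FPKM in WT. Here UTP6-OE and not TIF35-OE had the highest mean. LYS9 rose by 0.50 ± 0.05 in TIF35-OE (adjusted p = 0.000556), 0.60 ± 0.05 in UTP6-OE (adjusted p = 0.000137), 0.37 ± 0.05 in PRP22-OE (adjusted p = 0.00228) and 0.31 ± 0.05 in LSM5-OE (adjusted p = 0.0125), and UTP6-OE minus TIF35-OE was 0.10 (adjusted p = 0.329). The LSM5-OE call of LYS9 was lost without either WT culture (adjusted p = 0.0816 and 0.0996). LYS12, for homoisocitrate dehydrogenase, and LYS2, for aminoadipate reductase, were higher by 0.21 to 0.29 in PRP22-OE, UTP6-OE and TIF35-OE. Of these 6 calls, only that of LYS2 in PRP22-OE was kept with each culture left out. The LYS12 call was lost in TIF35-OE without the second TIF35-OE culture (adjusted p = 0.122) or either WT culture (0.0944 and 0.116), in UTP6-OE without either UTP6-OE culture (adjusted p = 0.0568 and 0.0851) or either WT culture (0.075 and 0.0927) and in PRP22-OE without either PRP22-OE culture (adjusted p = 0.135 and 0.108) or either WT culture (0.133 and 0.169), and the LYS2 call in TIF35-OE without the second TIF35-OE culture (adjusted p = 0.0649) or either WT culture (0.0687 and 0.0582) and in UTP6-OE without the second UTP6-OE culture (adjusted p = 0.0594) or either WT culture (0.0646 and 0.0558). LYS1, for the last step, was called in TIF35-OE alone, by 0.41, with 0.17 to 0.18 in the other strains. LYS4, for homoaconitase, was the exception in the pathway, at -0.11 to -0.04 and not called in any strain.

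The branched-chain pathway, which makes isoleucine, valine and leucine, had calls in both directions. Of its 10 counted genes, 3 were higher and 3 lower in TIF35-OE, where 9.62% and 20.7% of all features were. UTP6-OE had 1 and 4, against 9.95% and 19.1% of all features. PRP22-OE had 1 and 1, against 7.09% and 12.2%, and LSM5-OE also had 1 and 1, against 4.7% and 2.95%. The 1 higher in UTP6-OE and the calls in PRP22-OE are near these shares. ILV5, for acetohydroxyacid reductoisomerase, which makes precursors of both isoleucine and valine (chrXII:838066-839253), was at 947 and 1046 FPKM in TIF35-OE, 939.9 and 974 FPKM in UTP6-OE, 1318 and 1142 FPKM in PRP22-OE, 1385 and 1322 FPKM in LSM5-OE, against 1467 and 1441 FPKM in WT. TIF35-OE and UTP6-OE overlapped with each other and lay below all other cultures. ILV5 differed from WT by -0.55 ± 0.08 in TIF35-OE (adjusted p = 0.00286), -0.60 ± 0.08 in UTP6-OE (adjusted p = 0.00141), -0.24 ± 0.08 in PRP22-OE (adjusted p = 0.0744) and -0.10 ± 0.08 in LSM5-OE (adjusted p = 0.522), and so was called lower in TIF35-OE and UTP6-OE. UTP6-OE minus PRP22-OE was -0.36 (adjusted p = 0.0324) for ILV5, a call lost without either UTP6-OE culture (adjusted p = 0.137 and 0.117) or the first PRP22-OE culture (0.139). ILV3, for dihydroxyacid dehydratase, the next enzyme, differed from WT by -0.29 in TIF35-OE (adjusted p = 0.00912), -0.40 in UTP6-OE (adjusted p = 0.00192), -0.12 in PRP22-OE (adjusted p = 0.185) and -0.10 in LSM5-OE (adjusted p = 0.388). The TIF35-OE call of ILV3 was lost without the first TIF35-OE culture (adjusted p = 0.0641) or either WT culture (0.0631 and 0.0502). ILV2, for the catalytic subunit of acetolactate synthase, was called in UTP6-OE, at -0.21, but not without the first UTP6-OE culture (adjusted p = 0.157) or either WT culture (0.0921 and 0.156), nor after rescaling (log2 difference -0.14, adjusted p = 0.0684). ILV6, for the regulatory subunit of that enzyme, was called higher in all 4 strains, by 0.31 in TIF35-OE, 0.20 in PRP22-OE, 0.31 in UTP6-OE and 0.22 in LSM5-OE. The ILV6 call was lost in PRP22-OE without either PRP22-OE culture (adjusted p = 0.1 and 0.112) or either WT culture (0.0859 and 0.174) and in LSM5-OE without the second LSM5-OE culture (adjusted p = 0.113) or either WT culture (0.15 and 0.233). ILV5, ILV3 and ILV6 all have TGACTC in the windows shown above.

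BAT2, for the cytosolic branched-chain aminotransferase (chrX:705744-706874), was lower in every overexpression strain. It was at 328 and 323 FPKM in TIF35-OE, 245 and 267 FPKM in UTP6-OE, 302 and 302 FPKM in PRP22-OE, 405 and 388 FPKM in LSM5-OE, against 515 and 513 FPKM in WT. No culture overlapped with WT, UTP6-OE was the lowest and LSM5-OE the nearest to WT. The log2 difference was -0.66 ± 0.05 in TIF35-OE (adjusted p = 0.000215), -1.004 ± 0.05 in UTP6-OE (adjusted p = 1.37e-05), -0.77 ± 0.05 in PRP22-OE (adjusted p = 7.19e-05) and -0.38 ± 0.05 in LSM5-OE (adjusted p = 0.00817), which in UTP6-OE is a mean of 0.498 times that of WT. The LSM5-OE call of BAT2 was lost without either WT culture (adjusted p = 0.0734 and 0.061). For BAT2, UTP6-OE minus TIF35-OE was -0.35 (adjusted p = 0.00937), a call lost without the first UTP6-OE culture (adjusted p = 0.0512) or either TIF35-OE culture (0.0708 and 0.0583). In leucine synthesis, LEU1, for isopropylmalate isomerase and with a Leu3 motif, was higher by 0.23 in TIF35-OE, a call lost without the second TIF35-OE culture (adjusted p = 0.0972) or either WT culture (0.0766 and 0.102), and was not called in the other strains. ILV1, for threonine deaminase, was not called in any strain, at -0.06 to 0.11.

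**Figure D3:**
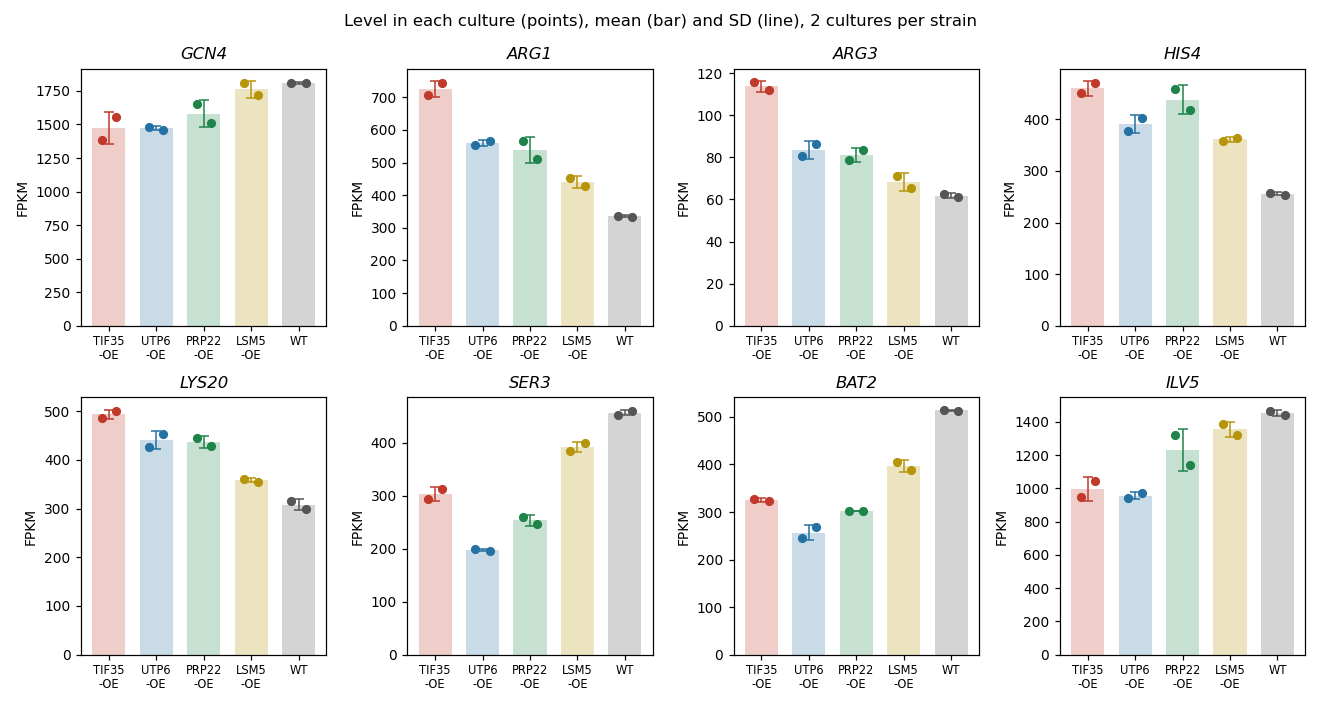
FPKM of 8 members in each culture, with the overexpression strains to the left of WT. Points are the 2 cultures, bars their mean and lines the SD, and each vertical axis starts at 0. ARG1, ARG3, HIS4 and LYS20 lie above WT and SER3 and BAT2 below it in all strains, and GCN4 overlaps with WT in LSM5-OE.

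Serine synthesis held the largest fall of any member. SER3 encodes a 3-phosphoglycerate dehydrogenase, the enzyme of the first step from glycolysis (chrV:322686-324095). It was at 294 and 312 FPKM in TIF35-OE, 199 and 196 FPKM in UTP6-OE, 261 and 246 FPKM in PRP22-OE, 385 and 399 FPKM in LSM5-OE, against 453 and 461 FPKM in WT. Each strain stood apart from the others and from WT, in the order UTP6-OE, PRP22-OE, TIF35-OE, LSM5-OE and WT from low to high. SER3 differed from WT by -0.59 ± 0.05 in TIF35-OE (adjusted p = 0.000295), -1.21 ± 0.05 in UTP6-OE (adjusted p = 6.57e-06), -0.85 ± 0.05 in PRP22-OE (adjusted p = 3.98e-05) and -0.22 ± 0.05 in LSM5-OE (adjusted p = 0.046), and in UTP6-OE its mean was 0.433 times that of WT. UTP6-OE minus PRP22-OE was -0.35 (adjusted p = 0.00702) and TIF35-OE minus PRP22-OE was 0.26 (adjusted p = 0.0228). The first of these was lost without the second UTP6-OE culture (adjusted p = 0.0527) and the other without either TIF35-OE culture (adjusted p = 0.059 and 0.117) or either PRP22-OE culture (0.0502 and 0.124). The LSM5-OE call of SER3 was lost without either LSM5-OE culture (adjusted p = 0.143 and 0.0703) or either WT culture (0.188 and 0.222). SER3 is known to be repressed by transcription of the noncoding RNA SRG1 across its promoter. SRG1, which is no member, was at 48.8 and 52.9 FPKM in TIF35-OE, 64.1 and 56.7 FPKM in UTP6-OE, 70.96 and 52.5 FPKM in PRP22-OE, 49.6 and 54.8 FPKM in LSM5-OE, against 51.00 and 61.8 FPKM in WT. The range of each overexpression strain overlapped with that of WT, and the SRG1 log2 differences, -0.14 in TIF35-OE, 0.12 in PRP22-OE, 0.10 in UTP6-OE and -0.10 in LSM5-OE, were not called, with adjusted p of 0.5 to 0.744.

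SER33, for the second 3-phosphoglycerate dehydrogenase (chrIX:221081-222490), moved in opposite directions in a pair of strains. It was at 298 and 321 FPKM in TIF35-OE, 195 and 202 FPKM in UTP6-OE, 252 and 225 FPKM in PRP22-OE, 276 and 278 FPKM in LSM5-OE, against 268 and 259 FPKM in WT. UTP6-OE lay below every other culture and TIF35-OE above both WT cultures. SER33 differed from WT by 0.23 ± 0.07 in TIF35-OE (adjusted p = 0.0335), -0.41 ± 0.07 in UTP6-OE (adjusted p = 0.00338), -0.14 ± 0.07 in PRP22-OE (adjusted p = 0.171) and 0.07 ± 0.07 in LSM5-OE (adjusted p = 0.582). The difference UTP6-OE minus TIF35-OE was -0.64 (adjusted p = 0.00152). The TIF35-OE call was lost without either TIF35-OE culture (adjusted p = 0.062 and 0.158) or either WT culture (0.0999 and 0.151), and the UTP6-OE call was kept in each of these fits. SER1, for phosphoserine aminotransferase, was called in TIF35-OE alone, by 0.37, and SER2, for the phosphatase of the last step, was not called, at -0.22 to -0.05.

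Of the 9 aromatic genes, 3 were higher in TIF35-OE, where 9.62% of all features were, and 1 in each other strain, where 9.95% (UTP6-OE), 7.09% (PRP22-OE) and 4.7% (LSM5-OE) of all features were. None was lower, where at an unadjusted p under 0.05 ARO7 was lower in LSM5-OE and TIF35-OE. The gene called in all 4 strains was ARO3, for a DAHP synthase, an enzyme of the first step. It was at 603 and 587 FPKM in TIF35-OE, 584 and 594 FPKM in UTP6-OE, 556 and 566 FPKM in PRP22-OE, 478 and 498 FPKM in LSM5-OE, against 403 and 430.1 FPKM in WT. All overexpression cultures were above WT, and ARO3 rose by 0.52 ± 0.05 in TIF35-OE (adjusted p = 0.000482), 0.50 ± 0.05 in UTP6-OE (adjusted p = 0.000352), 0.43 ± 0.05 in PRP22-OE (adjusted p = 0.00116) and 0.23 ± 0.05 in LSM5-OE (adjusted p = 0.0385). The LSM5-OE call of ARO3 was lost without either LSM5-OE culture (adjusted p = 0.0671 and 0.108) or either WT culture (0.242 and 0.0946). TRP2 and TRP4, for anthranilate synthase and anthranilate phosphoribosyl transferase of the tryptophan branch, were the other members called in TIF35-OE, by 0.23 and 0.30, and the TRP2 call was lost without either TIF35-OE culture (adjusted p = 0.0891 and 0.0788) or either WT culture (0.0543 and 0.126). ARO1, ARO2, ARO7, TRP3 and TRP5 were not called in any strain and lay between -0.22 and 0.17.

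Among the 5 genes that lead from aspartate to threonine, HOM3, for aspartate kinase, and HOM2, for the following dehydrogenase, were called in opposite directions. HOM3 was at 212 and 217 FPKM in TIF35-OE, 193 and 198 FPKM in UTP6-OE, 190.2 and 181 FPKM in PRP22-OE, 214 and 208 FPKM in LSM5-OE, against 229 and 218 FPKM in WT. The cultures of all strains lay below WT, and the log2 difference of HOM3 was -0.06 ± 0.05 in TIF35-OE (adjusted p = 0.382), -0.19 ± 0.05 in UTP6-OE (adjusted p = 0.0247), -0.27 ± 0.05 in PRP22-OE (adjusted p = 0.00898) and -0.08 ± 0.05 in LSM5-OE (adjusted p = 0.392). The PRP22-OE call of HOM3 was lost without the second PRP22-OE culture (adjusted p = 0.0618) or the first WT culture (0.0764), and the UTP6-OE call without either UTP6-OE culture (adjusted p = 0.109 and 0.0699) or either WT culture (0.155 and 0.0566), and after rescaling (log2 difference -0.12, adjusted p = 0.0977). HOM2 was higher by 0.33 in TIF35-OE (adjusted p = 0.00889) and 0.22 in UTP6-OE (adjusted p = 0.0381) and was not called in PRP22-OE or LSM5-OE. The HOM2 call was lost in TIF35-OE without the second TIF35-OE culture (adjusted p = 0.0541) or either WT culture (0.0565 and 0.0523) and in UTP6-OE without the second UTP6-OE culture (adjusted p = 0.189) or either WT culture (0.148 and 0.142). HOM6, THR1 and THR4, for homoserine dehydrogenase, homoserine kinase and threonine synthase, were not called and lay between -0.08 and 0.11.

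Of the 4 genes of glutamate and glutamine, 1 was higher and 1 lower in TIF35-OE and in UTP6-OE, 1 was lower in PRP22-OE and 0 were called in LSM5-OE with limma, or at an unadjusted p under 0.05. Of all features, 9.62% were higher and 20.7% lower in TIF35-OE, 9.95% and 19.1% in UTP6-OE, and 12.2% were lower in PRP22-OE. With 4 genes, a count of 1 says little beside these shares. GDH1, for the NADP-dependent glutamate dehydrogenase, differed from WT by 0.23 in TIF35-OE (adjusted p = 0.0408), 0.38 in UTP6-OE (adjusted p = 0.00628), 0.09 in PRP22-OE (adjusted p = 0.424) and 0.10 in LSM5-OE (adjusted p = 0.487). The TIF35-OE call of GDH1 was lost without either TIF35-OE culture (adjusted p = 0.0693 and 0.184) or either WT culture (0.15 and 0.14). GLN1, for glutamine synthetase, was called lower in UTP6-OE at -0.26 and GLT1, for glutamate synthase, in TIF35-OE at -0.27. The GLN1 call was lost without the second UTP6-OE culture (adjusted p = 0.055) or either WT culture (0.0617 and 0.0697), and the GLT1 call without the first TIF35-OE culture (adjusted p = 0.102) or either WT culture (0.0667 and 0.0989). In proline synthesis, PRO1, for gamma-glutamyl kinase, was called lower in UTP6-OE at -0.20, a call lost without either UTP6-OE culture (adjusted p = 0.113 and 0.176) or either WT culture (0.142 and 0.178), and after rescaling (log2 difference -0.13, adjusted p = 0.085). PRO2, for the next enzyme, was at -0.04 to 0.13 and was not called.

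For 7 steps the members include a pair of duplicated genes, and in several of them 1 copy was called where the other was not. Their coding sequences were identical at 65.8% (ARO3 and ARO4) to 88.7% (LYS20 and LYS21) of aligned bases, so reads in shared stretches could be assigned to either copy. LYS20 and LYS21 share an identical run of 278 bases, and their split is uncertain to that extent. LYS21 was higher by 0.38 in TIF35-OE (adjusted p = 0.00201), 0.29 in UTP6-OE (adjusted p = 0.00576), 0.25 in PRP22-OE (adjusted p = 0.0145) and 0.12 in LSM5-OE (adjusted p = 0.212), the same direction as LYS20, and the PRP22-OE call was lost without the first PRP22-OE culture (adjusted p = 0.0771) or either WT culture (0.0671 and 0.1). BAT1, the mitochondrial aminotransferase, was not called in any strain, with 0.16 in TIF35-OE, -0.06 in PRP22-OE, 0.02 in UTP6-OE and 0.03 in LSM5-OE, while BAT2 was lower in all 4. ARO4 was not called either, with 0.14 in TIF35-OE, 0.04 in PRP22-OE, 0.01 in UTP6-OE and -0.02 in LSM5-OE, while ARO3 was higher in all 4. LEU4, for the main isopropylmalate synthase, was higher by 0.28 in TIF35-OE (adjusted p = 0.00646), and LEU9 was not called, with 0.07 in TIF35-OE, 0.13 in PRP22-OE, 0.13 in UTP6-OE and -0.07 in LSM5-OE. ASN1, for an asparagine synthetase, differed from WT by 0.12 in TIF35-OE (adjusted p = 0.0783), 0.19 in UTP6-OE (adjusted p = 0.0204), 0.06 in PRP22-OE (adjusted p = 0.397) and -0.16 in LSM5-OE (adjusted p = 0.0857), and ASN2 lay at 0.00 to 0.08. The ASN1 call was lost without either UTP6-OE culture (adjusted p = 0.0639 and 0.0932) or either WT culture (0.127 and 0.0738). GDH3, the second glutamate dehydrogenase, was at 22.6 and 25.7 FPKM in TIF35-OE, 23.2 and 22.98 FPKM in UTP6-OE, 21.7 and 21.5 FPKM in PRP22-OE, 29.8 and 27.03 FPKM in LSM5-OE, against 26.9 and 28.2 FPKM in WT. It was called lower at -0.34 in PRP22-OE (adjusted p = 0.0233), a call lost without either PRP22-OE culture (adjusted p = 0.0867 and 0.107) or either WT culture (0.0808 and 0.134), and was not called in the other strains. Whether the copies of a pair differ from each other was not tested.

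**Figure D4:**
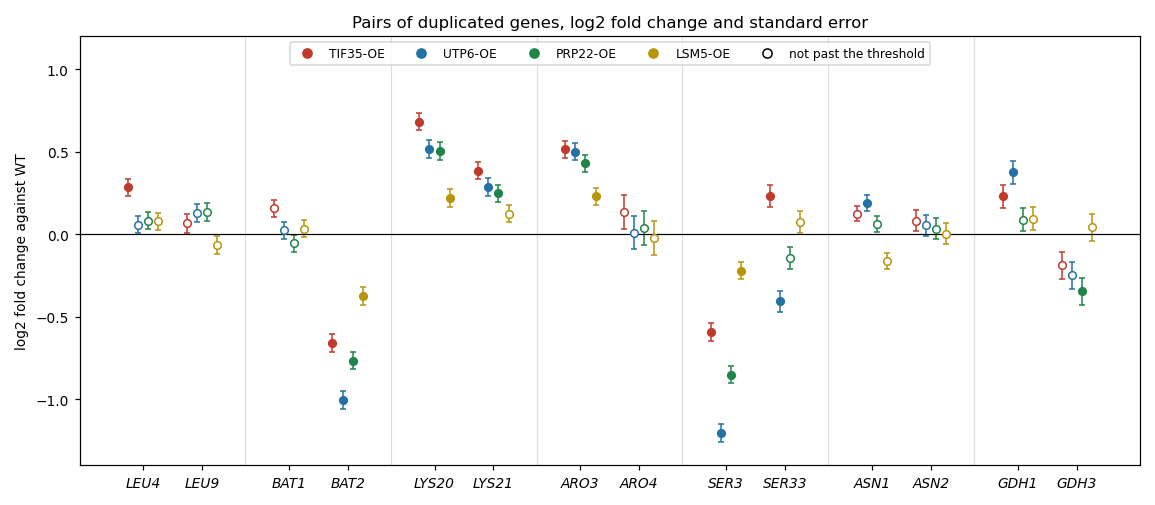
Log2 fold change against WT, with its standard error, of the 7 pairs of duplicated genes in the 4 overexpression strains. Filled points were called at an adjusted p of at most 0.05 and open points were not. BAT2 and SER3 lie below 0 in all strains, BAT1 is near 0, and SER33 is above 0 in TIF35-OE and below it in UTP6-OE.

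The members also differed among the overexpression strains, in a test that does not use the WT values as a reference. The F test over the 4 strains called 25 of the 55 members (45.5%), against 22.1% of all tested features. The smallest adjusted p were those of SER3 (0.000114), BAT2 (0.0012), ARG3 (0.0012), ARG1 (0.00133) and SER33 (0.00221). TIF35-OE against LSM5-OE called 13 members higher and 3 lower, where 2.5% and 8.88% of all features were called. TIF35-OE against PRP22-OE called 12 higher and 1 lower, where 5.39% and 5.93% of all features were called. UTP6-OE against TIF35-OE called 0 higher and 10 lower with limma, where 2.46% and 4.14% of all features were called, and 0 higher and 23 lower at an unadjusted p under 0.05. ARG1 was among the genes that were lower in UTP6-OE than in TIF35-OE, with a log2 difference of -0.37 (adjusted p = 0.0135), a call lost without either UTP6-OE culture (adjusted p = 0.0795 and 0.0695) or either TIF35-OE culture (0.0559 and 0.0944). UTP6-OE against PRP22-OE called 2 higher and 5 lower (3.73% and 6.35% of all features), UTP6-OE against LSM5-OE called 9 higher and 8 lower (6.4% and 16.4%), and PRP22-OE against LSM5-OE called 4 higher and 3 lower (0.728% and 4.09%). With any culture of these strains left out, the F test called 14 to 17 members. Without the 3 libraries of shorter fragments, 1 culture is left in each of 3 strains, and the F test called fewer members still. The differences between overexpression strains given above as past the threshold did not pass it in that fit. Those of UTP6-OE minus LSM5-OE for SER3, BAT2, SER33 and ILV5, not given singly above, did pass.

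The share of members with TGACTC was set beside these calls as a description. In TIF35-OE the motif was present in 16 of 25 members called higher, 2 of 6 called lower and 11 of 24 not called. In UTP6-OE it was present in 9 of 17 higher, 3 of 10 lower and 17 of 28 not called. In PRP22-OE it was in 7 of 14 higher, none of 4 lower and 22 of 37 not called, and in LSM5-OE in 4 of 9 higher, neither of 2 lower and 25 of 44 not called. Of the genes with the largest changes, HIS4 and HIS5 hold the motif in the window, and ARG1, ARG3, LYS20, SER3 and BAT2 do not.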

How the data were processed

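RNA from 2 cultures of each of 5 strains was sequenced, and the authors deposited FPKM values per gene, in a pair of tables that held the same value in all 58240 cells. The study's methods name HISAT2, featureCounts, edgeR and DESeq2, while the submitters' processing notes list STAR, RSEM, edgeR and limma, so the program behind the FPKM is not settled by the sources used here. No count test was run, since the files used here hold no counts. Samples were grouped by the labels. Features averaging 1 FPKM or more were fitted as log2(FPKM + 0.5) with limma 3.58.1 in R 4.3.3 (lmFit, eBayes with trend), 1 mean per strain over 10 libraries with 5 residual degrees of freedom, and p-values, two-sided, were adjusted by Benjamini-Hochberg over all tested features. The procedure was tested on simulated data. Fold changes on this scale understate changes of low genes. Fragment totals and lengths were estimated from the spacing of low values, of which 75.0% to 92.9% per library came within 0.15 of a whole number. Gene positions and promoter windows came from RefSeq R64 (5775 of 5824 features matched).

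The members and lists were chosen with earlier results of these data known. Genes are named by these rules: GCN4, the deleted members, in each strain the 4 largest rises and falls among calls with no overlap with WT, calls of 1 or more in log2 size, the 5 smallest p of the F test, and both genes of each duplicated pair. Other members and SRG1 are given to account for their pathways. Alternatives were other pseudocounts (0.1 and 1), no filter or one at 5 FPKM, median-of-ratios rescaling, only the strains compared, a replicate block, no mean-variance trend, features of at least 400 bases, and leaving out libraries. p-values measure the spread between cultures of 1 experiment.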

Additional observations from a re-analysis of the deposited data

Results flagged for a closer look

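The members that differed among the 4 overexpression strains stood out, 25 of 55 by the F test (45.5%), against 22.1% of all tested features. Fewer were called with any culture of these strains left out. SER3 had the smallest adjusted p in that test, 0.000114, and its ranges overlapped between no strains. BAT2 had an adjusted p of 0.0012 and ARG3 of 0.0012, with UTP6-OE lowest for BAT2 and TIF35-OE highest for ARG3. ARG1 had an adjusted p of 0.00133, with TIF35-OE highest, and SER33 of 0.00221. SER33 also carried opposite calls against WT, and its difference UTP6-OE minus TIF35-OE was -0.64 on the log2 scale. Its TIF35-OE call against WT was lost with any culture of that comparison left out. With 2 cultures in a group, no culture could be tested for lying far from the others of its strain.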

How the results depend on the processing

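All numbers here are members called, unless another quantity is named. For the named members, 1232 values were computed under the alternatives, of which 1125 kept their direction and their side of the threshold, 94 were no longer called and 13 became called, and no called value of any counted member changed sign. Of 56 medians over the members, 6 moved by more than the spread between cultures: on rescaling, to 0.25 in TIF35-OE, 0.12 in UTP6-OE and 0.11 in PRP22-OE, and with a culture left out, to 0.02 to 0.055 in LSM5-OE. Without the 3 libraries of shorter fragments, the calls were 10 higher (25 with all libraries) and 3 lower (6) in TIF35-OE, 9 (17) and 5 (10) in UTP6-OE, 3 (14) and 2 (4) in PRP22-OE, and for LSM5-OE 1 (9) and 0 (2), with 1 (25) in the F test. With only the strains compared, LSM5-OE had 1 higher and 0 lower, and LYS12 in TIF35-OE, HOM2 and ILV2 in UTP6-OE, and HOM3, ILV6, LYS12 and LYS21 in PRP22-OE were no longer called. Without the mean-variance trend, LSM5-OE had 1 lower, and ARG8 in TIF35-OE and PRO1 in UTP6-OE were lost. With 1 culture left out, the ranges were 16 to 21 higher and 3 to 6 lower in TIF35-OE, 12 to 15 and 5 to 7 in UTP6-OE, 10 to 12 and 2 to 4 in PRP22-OE, for LSM5-OE 1 to 4 and 0 to 1, and 14 to 17 in the F test. The lowest of these came without the second TIF35-OE or a WT culture for the 16 higher in TIF35-OE, without the first TIF35-OE or a WT culture for the 3 lower, without a WT culture for the 5 lower in UTP6-OE, without the second PRP22-OE or the first WT culture for the 2 lower in PRP22-OE, and without a WT culture for LSM5-OE. The lone culture of a strain is then assumed to vary like the others. The replicate numbers are shared between strains. The culture differences correlated at -0.36 to 0.432 between the 3 strains that have a library of shorter fragments, and at -0.0623 to 0.118 in pairs with LSM5-OE or WT. These values do not settle whether the numbers pair the cultures. A replicate block gave 4 higher and 1 lower in LSM5-OE and 18 in the F test, and ended the calls of ARG8, GDH1 and SER33 in TIF35-OE (adjusted p = 0.063, 0.0614 and 0.0513) and of HOM2 and PRO1 in UTP6-OE (0.0542 and 0.0592). The cause of these differences was not tested. LSM5-OE fold changes did not move without the 3 libraries of shorter fragments or with only the strains compared. Each of these fits of LSM5-OE has 2 residual degrees of freedom in place of 5. Shares of all features called in them are not given here. At an unadjusted p under 0.05, limma found 4 lower in LSM5-OE both without the 3 libraries and with only the strains compared, and 4 and 2 without the first and the second WT culture. Depth limits GDH3 most, with 351 fragments in its shallowest library.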

Other observations

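Other genes of amino acid metabolism, kept in lists apart from the members, were counted in the same fits. The examples named here were chosen after their values were seen. Of 19 further enzymes, 8 were higher and 1 lower in TIF35-OE, 5 and 2 in UTP6-OE, 5 and 1 in PRP22-OE, and for LSM5-OE 5 and 1, where the shares of all features called higher were 9.62%, 9.95%, 7.09% and 4.7%. SHM2, for the cytosolic serine hydroxymethyltransferase, had log2 differences from WT of 0.84 in TIF35-OE, 0.95 in PRP22-OE, 0.57 in UTP6-OE and 0.89 in LSM5-OE. ARG5,6, for a pair of enzymes of ornithine synthesis, stood at 0.68 in TIF35-OE, 0.48 in PRP22-OE, 0.32 in UTP6-OE and 0.31 in LSM5-OE. AAT1, for the mitochondrial aspartate aminotransferase, was lower in all 4 strains, at -0.51 in TIF35-OE, -0.41 in PRP22-OE, -0.41 in UTP6-OE and -0.42 in LSM5-OE.

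Genes that act on GCN4 or beside its product were counted likewise, where 20.7% of all features were called lower in TIF35-OE, 19.1% in UTP6-OE and 12.2% in PRP22-OE, and 9.62%, 9.95% and 7.09% higher. Among 12 genes of the Gcn2 kinase and of the factors eIF2 and eIF2B, 2 were lower in TIF35-OE and 1 each in PRP22-OE and UTP6-OE. In LSM5-OE limma called 0, with 3 lower at an unadjusted p under 0.05, and 0 were higher in any strain, at an unadjusted p under 0.05 likewise. GCN2 had log2 differences of -0.39 in TIF35-OE, -0.17 in PRP22-OE, -0.31 in UTP6-OE and -0.10 in LSM5-OE, called in TIF35-OE and UTP6-OE. Of 10 regulators of single pathways or of Gcn4, 1 was higher and 1 lower in TIF35-OE, 1 was lower in UTP6-OE, 2 were lower in PRP22-OE and 0 were called in LSM5-OE, where 1 was higher at an unadjusted p under 0.05. The regulator called higher in TIF35-OE was PHO85, with 0.23 there, -0.035 in PRP22-OE, 0.15 in UTP6-OE and 0.12 in LSM5-OE. The one called lower in TIF35-OE was ARG81, at -0.23. PCL5, for a cyclin that takes part in the degradation of Gcn4, was called lower in UTP6-OE and PRP22-OE. It stood at -0.08 in TIF35-OE, -0.29 in PRP22-OE, -0.44 in UTP6-OE and 0.00 in LSM5-OE. MBF1, for a coactivator of Gcn4, was called in PRP22-OE alone, with -0.17 in TIF35-OE, -0.68 in PRP22-OE, -0.36 in UTP6-OE and -0.24 in LSM5-OE. Calls of these genes with a culture left out were not computed.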
